A study of Mus musculus with 4 samples.

Results

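Mouse genes whose symbol is Zfp followed by a number, without Zfp36, were chosen by their read count, which had to reach 100 in each of the 4 libraries. The rule selected 137 of the 346 such genes in the files, which held 16566 genes in all. Neutrophils of C57BL/6 mouse bone marrow, stated to be over 95% pure, were kept for 1 h in medium with 20% serum. The 2 control libraries came from cells given vehicle, a mix of 80% glucose and 20% PEG300. The other 2 libraries came from cells given ruxolitinib, an inhibitor of the kinases JAK1 and JAK2, at 0.1 µM by the treatment label and 1 µM by the protocol. The labels give no age or sex and do not say whether the libraries of a group came from separate animals or cultures, so the spread between them may be technical.

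Zfp is the mouse symbol for a large and loosely named family of zinc finger proteins. In a C2H2 finger, a pair of cysteines and a pair of histidines hold a zinc ion and keep a small domain folded. The domain can read DNA or RNA, and tandem fingers read longer stretches. Many members also carry a KRAB box, which recruits the corepressor Trim28 and through it histone deacetylases, the H3K9 methyltransferase Setdb1 and heterochromatin proteins. KRAB zinc finger proteins are best known for silencing transposable elements, and their genes often lie in clusters that grew by duplication. Members without a KRAB box include activators, RNA-binding proteins, ubiquitin ligases and ribosome factors. Messages of many zinc finger factors are short-lived, but RNA half-lives were not measured here.

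Translated coding sequences of the GENCODE M21 annotation were searched for the C2H2 pattern, a pair of cysteines 2 to 4 residues apart, 12 further residues and a pair of histidines 3 to 5 residues apart. The pattern occurred at least once in 135 of the 137 members and at least 2 times in 128, with a median of 9 and a maximum of 37 in Zfp142. Zfp330 and Zfp703 had none. A strict 11-residue KRAB pattern was found in at least 1 coding transcript of 56 members, called KRAB members here, and in none of 81. For 1 of the 56, Zfp655, it was only in a transcript other than the longest complete one. The strict pattern can miss diverged KRAB boxes, as in Zfp263, whose human counterpart carries one and which counts here among the members without the pattern. KRAB members held 6 to 33 finger patterns with a median of 11.5, against a median of 7 in the others.

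The bases coding for the KRAB pattern are shown for 3 members described below, with the codons of its closing glutamate and tryptophan in capitals.
Zfp932: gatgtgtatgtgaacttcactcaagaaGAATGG
Zfp719: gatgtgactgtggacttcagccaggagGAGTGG
Zfp869: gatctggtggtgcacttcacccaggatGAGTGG

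One finger and the linker after it are shown as coding bases for 2 KRAB members and 2 members without the pattern, with the cysteine and histidine codons in capitals. These genes had among the widest ranges between libraries.
Zfp932: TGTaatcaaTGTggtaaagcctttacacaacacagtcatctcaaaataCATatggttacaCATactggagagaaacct
Zfp869: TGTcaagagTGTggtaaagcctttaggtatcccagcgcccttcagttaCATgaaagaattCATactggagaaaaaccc
Zfp296: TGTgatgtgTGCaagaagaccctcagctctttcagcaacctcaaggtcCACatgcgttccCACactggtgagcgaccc
Zfp710: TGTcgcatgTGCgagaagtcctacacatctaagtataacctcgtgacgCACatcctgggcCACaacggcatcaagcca

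Library totals were 14235511 to 15419579 estimated counts, and the members took 0.601% and 0.605% of them in vehicle 1 and vehicle 2 and 0.608% and 0.561% in ruxolitinib 1 and ruxolitinib 2. Vehicle 2 stood apart from the other libraries. The median absolute log2 difference over the members was 0.43 between the vehicle libraries, 0.23 between the ruxolitinib libraries and 0.08 between vehicle 1 and ruxolitinib 1, which were the closest pair although they belong to different groups. Over all 11611 tested genes the same medians were 0.40, 0.26 and 0.10. All 15 neutrophil markers were present, with a summed CPM, the count scaled to library size, of 97780 to 108300 in vehicle and 99500 to 120400 in ruxolitinib. Summed erythroid markers were 7304 to 7589 CPM in vehicle and 7432 to 18370 in ruxolitinib, with the high value in ruxolitinib 2. B lineage markers summed to 1220 to 1479 and 1188 to 2053 CPM, monocyte and macrophage markers to 1086 to 1196 and 1073 to 1291, dendritic markers to 2404 to 3163 and 2972 to 4990, and T and NK markers to 38.9 to 47.0 and 39.5 to 58.2, vehicle first. Eosinophil, basophil and mast cell markers summed to 967 to 1469 CPM in vehicle and 408 to 1089 in ruxolitinib, and progenitor markers to 641 to 742 and 474 to 674. The files held 10 of 11 listed erythroid markers and 10 of 11 listed T and NK markers. No marker held in the files was at 0 in all libraries, and the part of these cells in the members' values was not tested. In bulk RNA, fewer cells of a type and less RNA per cell cannot be told apart.

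Because the counts chose the members, their levels are given as a description. Levels between genes are compared in TPM, which is scaled to library size and gene length. The members' mean TPM ranged from 2.87 for Zfp994 to 143 for Zfp488, with a median of 12.8, beside 13.3 over all tested genes. The summed TPM of the members was 2500 and 2449 in the vehicle libraries and 2551 and 2093 in the ruxolitinib libraries. The low sum belonged to ruxolitinib 2, in which the median ratio of TPM to FPKM over genes was 1.46 beside 1.71 to 1.73 elsewhere. Summed CPM, which is not scaled to length, was 5886 and 5954 in vehicle and 6038 and 5868 in ruxolitinib, so the groups overlapped.

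Zfp488, which works with Olig2 in oligodendrocytes, had the highest level at 143 ± 32.5 TPM (SD, n = 4 libraries). Its lowest library, at 120 TPM, was above the highest library of the next gene, Zfp207, at 116 TPM. Some of its counts were not whole, so part of its reads were shared with other loci. Zfp207, a spindle protein that binds microtubules, had 94.2 ± 22.3 TPM and Zfp263, whose human counterpart carries a SCAN domain and a diverged KRAB box, had 77.2 ± 34.4 TPM. Zfp384, a transcription factor rearranged in some human leukaemias, followed at 63.2 TPM, then Zfp740 at 59.3, Zfp516, a regulator of brown fat genes, at 50.8, Zfp106, an RNA-binding protein needed by motor neurons, at 49.6, Zfp869 at 49.2, Zfp91, a ubiquitin ligase of the noncanonical NF-kB pathway, at 41.2 and Zfp414 at 40.9. From Zfp207 downward the ranges of neighbours in this order overlapped. Zfp869 was the only member with the strict KRAB pattern among these 10, and the median level of all KRAB members was 8.47 TPM against 14.3 TPM for the others.

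At the edge of the rule, the lowest library of Zfp282 and of Zfp429 held 106 counts, that of Zfp994 107 and that of Zfp617 110. Just outside, the lowest library held 98 counts for Zfp160, 97 for Zfp101, 95 for Zfp935 and 94 for Zfp511. A mean count of at least 100 would have added 20 genes that were under 100 in some library. The lowest count was in vehicle 2 for 12 of them and in ruxolitinib 2 for 7. Some were under 100 in more than 1 library, such as Zfp810 with 77 in vehicle 2 and 86 in ruxolitinib 2. These are raw counts, and ruxolitinib 2 had the smallest library total.

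The effect of ruxolitinib was tested with the edgeR quasi-likelihood method on all 11611 genes that passed the filter, with Benjamini-Hochberg adjustment over them. None of the 137 members passed an adjusted p of 0.05, and 0% of all tested genes passed it. DESeq2 and limma-voom also called 0 members. Adjusted p-values of the members began at 0.975. Before adjustment, 3 members had p below 0.05, 1 higher and 2 lower with ruxolitinib, beside 1.94% of all tested genes. The median log2 fold change over the members was 0.03, with 77 of 137 above 0, and the median over all tested genes was −0.005, with 49.4% above 0. Members' log2 fold changes ran from −1.29 for Zfp296 to 0.93 for Zfp326.

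**Figure D1:**
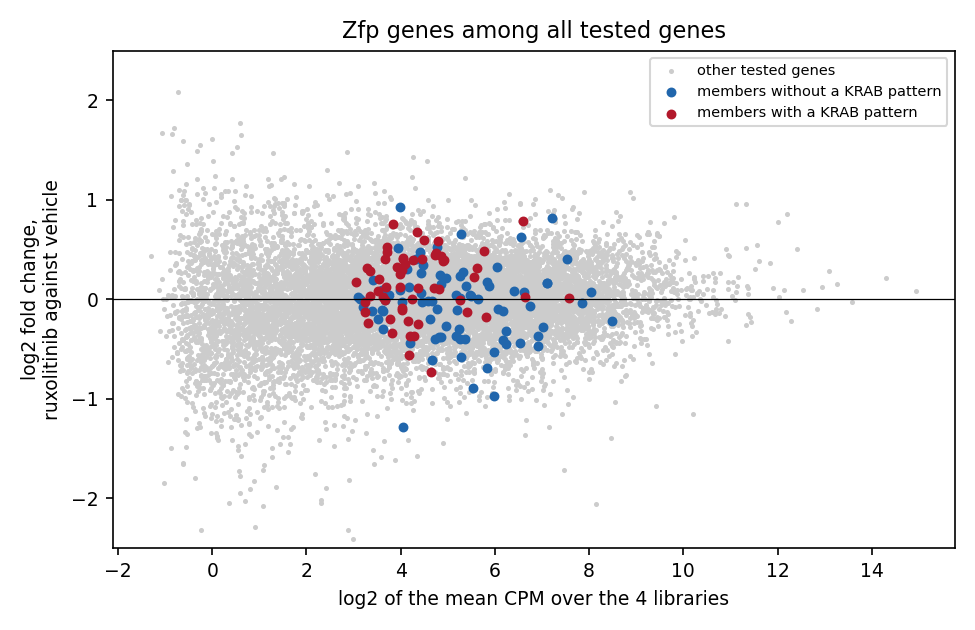
Log2 fold change of ruxolitinib against vehicle (vertical axis) against the log2 of the mean CPM over the 4 libraries (horizontal axis), with 1 point per tested gene. Grey points are other tested genes, of which 10 lie beyond the axis limit of 2.5, red points are the 56 KRAB members and blue points the 81 other members. The members lie within the cloud of the other genes, and none passed the adjusted threshold.

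The groups did not overlap in CPM for 41 members, 27 higher and 14 lower with ruxolitinib. That is 19.7% and 10.2% of the members, where 14.5% of all tested genes were higher and 12.8% lower, 27.3% in either direction. Of the 56 KRAB members 12 were higher and 3 lower, and of the other 81 members 15 were higher and 11 lower. The median log2 fold change was 0.15 over the KRAB members, with 39 of 56 above 0, and −0.02 over the others, with 38 of 81 above 0. Without vehicle 2 the KRAB median was 0.0055, and without vehicle 1 it was 0.39.

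The scale of the values set the sign of the members' median. On log2(TPM + 1) the median difference was −0.11 over the members and −0.13 over all tested genes, so that relative to all genes the members were close to 0 on both scales. On that scale the median was 0.02 over the KRAB members and −0.15 over the others. Each ruxolitinib TPM mean holds the low scaling of ruxolitinib 2.

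Zfp326, a protein of the complex that links splicing to RNA polymerase II elongation, had the smallest p among the members. Its level was 12.3 and 9.46 CPM in the vehicle libraries and 16.7 and 24.7 CPM in the ruxolitinib libraries. Both ruxolitinib libraries were above both vehicle libraries. Its log2 fold change was 0.93 ± 0.33 (SE), with an adjusted p of 0.975 by edgeR. The log2 fold change was 0.74 without vehicle 2 and 0.62 without ruxolitinib 2. Because the groups did not overlap, leaving out a library could not change its sign, so these values are no support for the direction.

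Zfp62 stood at 81.9 and 66.0 CPM in vehicle and 92.7 and 136 CPM in ruxolitinib. The groups did not overlap, and ruxolitinib 2 was highest, at a log2 fold change of 0.63 ± 0.30, which was 0.32 without ruxolitinib 2. Zfp638, an RNA-binding protein that recruits the HUSH silencing complex to unintegrated retroviral DNA, stood at 54.0 and 86.0 CPM in vehicle and 53.5 and 33.4 CPM in ruxolitinib. Its groups did not overlap, although vehicle 1 and ruxolitinib 1 were nearly equal, and the log2 fold change was −0.69 ± 0.34. It was −0.32 without vehicle 2 and −0.39 without ruxolitinib 2. Zfp598, whose human counterpart is a ubiquitin ligase that marks collided ribosomes, was at 26.6 and 34.4 CPM in vehicle and 23.5 and 16.5 CPM in ruxolitinib. Both ruxolitinib libraries of Zfp598 were below both vehicle libraries, at a log2 fold change of −0.61 ± 0.31, which was −0.42 without vehicle 2 and −0.38 without ruxolitinib 2. None of these 3 genes passed the adjusted threshold.

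In the other named members with large fold changes, vehicle 2 differed from the 3 other libraries. Zfp263 was at 167 CPM in vehicle 1, 48.1 in vehicle 2, 185 in ruxolitinib 1 and 193 in ruxolitinib 2. Vehicle 2 alone was low, and vehicle 1 lay just below the ruxolitinib libraries, so the groups did not overlap. The log2 fold change was 0.81 ± 0.46, and 0.17 without vehicle 2.

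The KRAB member Zfp869 was at 94.8 CPM in vehicle 1, 46.6 in vehicle 2, 98.3 in ruxolitinib 1 and 146 in ruxolitinib 2. Vehicle 2 was lowest and ruxolitinib 2 highest, and the groups did not overlap. The log2 fold change of 0.79 ± 0.37 became 0.36 without vehicle 2. Zfp932 was at 34.2, 9.98, 30.3 and 36.2 CPM, and Zfp719 at 27.3, 8.67, 25.5 and 28.8 CPM, in the same order of libraries. In both, vehicle 2 lay below the others and the remaining 3 libraries were alike, so that their groups overlapped. Their log2 fold changes of 0.59 ± 0.46 and 0.59 ± 0.45 became −0.05 and −0.02 without vehicle 2. Zfp932 had counts that were not whole. Of the chromosome 13 genes, Zfp429 was at 14.5, 6.91, 15.7 and 20.4 CPM and Zfp87 at 21.3, 10.1, 22.0 and 28.2 CPM. Both were lowest in vehicle 2 without overlap of the groups, and Zfp429 also had counts that were not whole. Their log2 fold changes of 0.75 ± 0.38 and 0.67 ± 0.38 became 0.31 and 0.23 without vehicle 2.

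Other members were high in vehicle 2 alone. Zfp296, a factor that promotes induced pluripotency, was at 9.27 CPM in vehicle 1, 37.6 in vehicle 2, 8.64 in ruxolitinib 1 and 10.6 in ruxolitinib 2. Zfp710 was at 42.3, 125, 42.9 and 42.4 CPM in the same order. In both genes vehicle 1 lay close to both ruxolitinib libraries, and their groups overlapped. They were the 2 members lower before adjustment, with log2 fold changes of −1.29 ± 0.52 and −0.98 ± 0.43. The edgeR test gave them an adjusted p of 0.975 each. Without vehicle 2 these became 0.04 and 0.0017. Zfp831 was at 30.5, 90.3, 33.2 and 31.9 CPM, and the KRAB member Zfp971 at 19.7, 43.2, 21.4 and 16.4 CPM, the latter from counts that were not whole. Vehicle 2 was again the high library, and the groups overlapped. Their log2 fold changes of −0.89 ± 0.43 and −0.73 ± 0.38 became 0.09 and −0.07 without it.

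**Figure D2:**
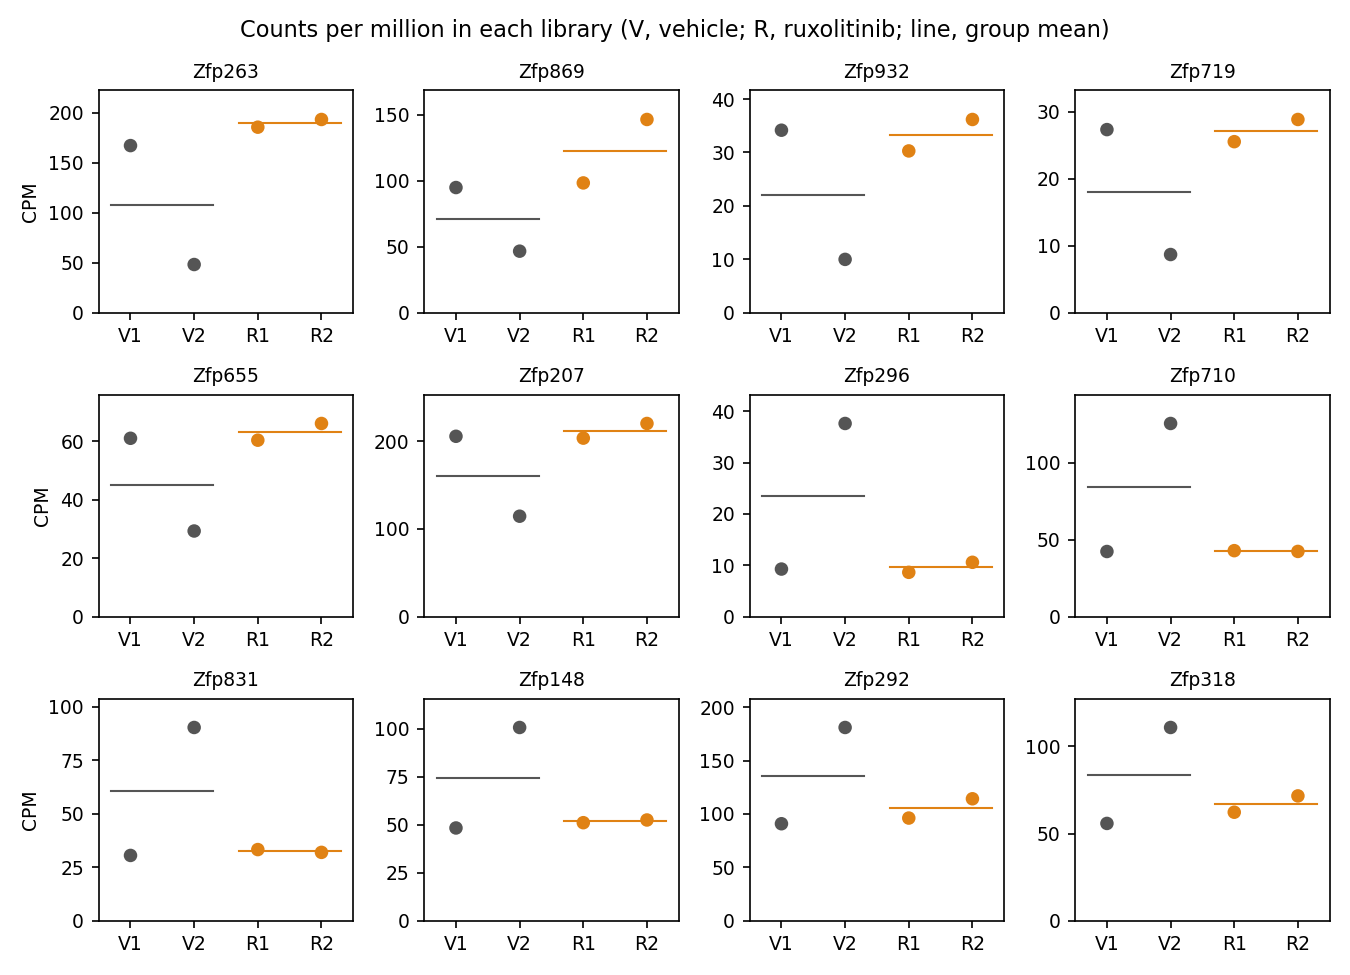
CPM in each library for 12 members, with grey points for vehicle (V1, V2), orange points for ruxolitinib (R1, R2) and lines for the group means. In Zfp263, Zfp869, Zfp932, Zfp719, Zfp655 and Zfp207 vehicle 2 is the lowest point, and in Zfp296, Zfp710, Zfp831, Zfp148, Zfp292 and Zfp318 it is the highest.

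Members with described functions were taken by role. Among DNA-binding regulators, Zfp148, which binds GC-rich promoters, was at 48.3 and 101 CPM in vehicle and 51.0 and 52.4 CPM in ruxolitinib. Zfp292 was at 90.8 and 181 CPM in vehicle and 96.1 and 114 CPM in ruxolitinib, and Zfp318, required for IgD expression in B cells, at 55.8 and 111 CPM and 62.3 and 71.6 CPM. In all 3 vehicle 2 was highest and the groups overlapped. Zfp143, an activator of small nuclear RNA genes, was at 50.4 and 38.1 CPM in vehicle and 47.2 and 43.4 CPM in ruxolitinib. Zfp281, a repressor of Nanog, was at 105 and 86.4 CPM and 112 and 89.1 CPM. Their groups overlapped, with log2 fold changes of 0.03 ± 0.29 and 0.07 ± 0.28. Zfp217 was at 75.6 and 88.7 CPM in vehicle and 74.5 and 49.3 CPM in ruxolitinib, with ruxolitinib 2 lowest and no overlap. Zfp703, which binds Groucho corepressors, was at 32.9 and 60.6 CPM and 33.8 and 28.8 CPM, with vehicle 2 highest and the groups overlapping.

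Among members that act on RNA, ribosomes or the spindle, Zfp207 was at 206 and 115 CPM in vehicle and 204 and 220 CPM in ruxolitinib. Its groups overlapped, since vehicle 2 alone was low. Zfp622, whose human counterpart works in maturation of the large ribosomal subunit, was at 48.0 and 59.6 CPM in vehicle and 49.8 and 71.4 CPM in ruxolitinib, with the groups overlapping. Zfp830, a splicing-associated protein, was nearly level at 24.1 and 23.9 CPM and 22.3 and 25 CPM. Zfp746, Zfp809 and Zfp655 were listed for other roles. Zfp746, a parkin substrate that represses the PGC-1 alpha gene, was at 50.1 and 49.8 CPM in vehicle and 53.0 and 47.2 CPM in ruxolitinib. The log2 fold changes of Zfp830 and Zfp746, −0.02 and 0.0051, were close to 0, with standard errors of 0.29 and 0.27. Zfp809, a KRAB protein that silences retroviruses with Trim28, was at 15.2 and 9.33 CPM in vehicle and 15.9 and 8.90 CPM in ruxolitinib. It was low in the second library of each group, with a log2 fold change of 0.02 ± 0.38. Zfp655, another KRAB member, was at 61.0 and 29.3 CPM in vehicle and 60.3 and 66.0 CPM in ruxolitinib, and vehicle 2 alone was low.

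The remaining listed members, Zfp335, Zfp384, Zfp687, Zfp706, Zfp800, Zfp91 and Zfp106, had log2 fold changes from −0.09 for Zfp335 to 0.17 for Zfp91. None of the listed members passed the adjusted threshold.

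The KRAB members as a group were lower in vehicle 2. Their summed level was 1575 CPM in vehicle 1, 1244 in vehicle 2, 1601 in ruxolitinib 1 and 1569 in ruxolitinib 2. The other members summed to 4311, 4710, 4437 and 4299 CPM in the same order. Vehicle 2 was thus the lowest library for the KRAB sum and the highest for the sum of the others. These sums set 1 library against the rest, so no test applies. A sum is weighted to abundant genes such as Zfp488, among the others, with 4977 counts in vehicle 1 and 7028 in vehicle 2. The median log2 deviation from a gene's mean over the libraries was 0.0018 over the others in vehicle 2. Over the KRAB members it was −0.28 in that library.

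Between vehicle 2 and vehicle 1 the median log2 difference was −0.35 over the KRAB members, of which 15 of 56 were higher in vehicle 2. It was 0.02 over the other members, with 42 of 81 higher, and −0.0063 over all tested genes, with 49.6% higher. Vehicle 2 lay below each other library by more than 1.5-fold in 18 KRAB members and 9 others, 19.7% of all members where all tested genes gave 11.3%. It lay above each by more than 1.5-fold in 2 KRAB members and 12 others, 10.2% of all members where all tested genes gave 10.1%. The 1.5-fold rule was chosen after the values were seen.

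**Figure D3:**
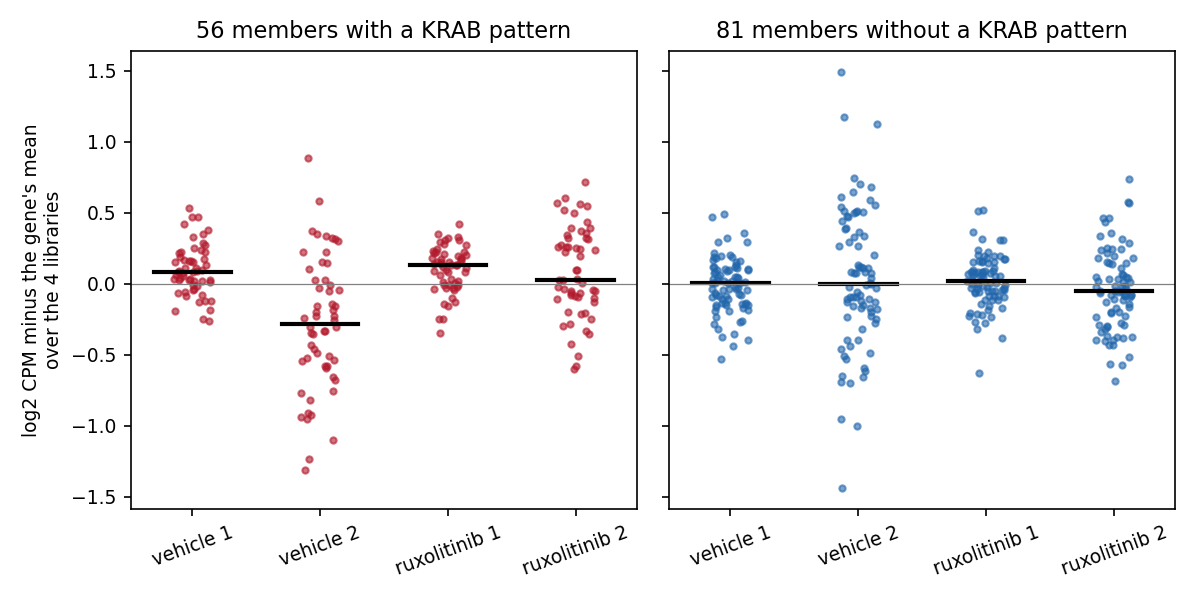
Log2 CPM of each member minus its mean over the 4 libraries, by library, for the 56 KRAB members (left) and the 81 other members (right). Points are genes and black bars are medians, which in vehicle 2 lie below 0 for the KRAB members and at about 0 for the others.

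Properties of the transcripts differed between the kinds of member. The median GC content was 40.5% in KRAB members, 49.7% in the others and 50.01% in all tested genes. Vehicle 2 had the steepest trend with GC content of the 4 libraries, a log2 slope of 0.07 per 10 percentage points of GC. With the GC trend of each library removed, the KRAB median between vehicle 2 and vehicle 1 was −0.23, with 36 of 56 lower in vehicle 2, and the median of the others was 0.03. With the trend on gene length removed instead, it was −0.41 over the KRAB members, with 41 of 56 lower, and 0.03 over the others. Both corrections were added after the data were seen. Counts were not whole in 18 of the 56 KRAB members and 10 of the other 81, and for these 28 genes the split of reads between similar loci is uncertain.

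The members were also taken by number of finger patterns, in groups set after the values were seen. The median log2 difference of vehicle 2 from vehicle 1 was 0.02 in 23 members with 0 to 3 patterns, 0.10 in 24 with 4 to 7, −0.23 in 55 with 8 to 12 and −0.31 in 35 with 13 to 37. KRAB members made up 0, 4, 31 and 21 of these. Within members of 8 to 12 patterns the medians were alike, −0.23 over 31 KRAB members and −0.22 over 24 others. Within members of 13 to 37 patterns they were −0.55 over 21 KRAB members, 17 of them lower in vehicle 2, and 0.06 over 14 others, 5 of them lower. In the group of 4 to 7 patterns the median was −0.49 over 4 KRAB members and 0.22 over 20 others.

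Members that neighbour each other were examined together. Taking 3 or more members with gaps of at most 500 kb, a distance chosen after the values were seen, gave 9 clusters with 42 members, 27 of them KRAB members. On chromosome 17, chr17:21450374-22393909 (GRCm38.p6) held 8 KRAB members, Zfp51, Zfp53, Zfp52, Zfp942, Zfp943, Zfp994, Zfp944 and Zfp758. All 8 were lower in vehicle 2 than in vehicle 1, with a median of −0.53. Zfp53, for example, was at 27.3 and 17.7 CPM in vehicle and 28.4 and 32.8 CPM in ruxolitinib, and Zfp942 at 23.3 and 14.2 CPM and 24.1 and 25.4 CPM. Both genes were lowest in vehicle 2.

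On chromosome 13, chr13:67312985-67729178 held 7 KRAB members, of which 6 were lower in vehicle 2, with a median of −0.74. The exception was Zfp65, at 48.8 and 70.2 CPM in vehicle and 51.8 and 53.5 CPM in ruxolitinib. On chromosome 8, chr8:69610654-69774911 held Zfp868, Zfp869 and Zfp866, with a median of −1.02. Zfp866 was at 36.5 and 14.9 CPM in vehicle and 35.3 and 32.1 CPM in ruxolitinib, while Zfp868 was nearly level between the vehicle libraries at 26.4 and 26.2 CPM. Of the other 6 clusters, that on chromosome 9, with 3 KRAB members, had a median of −0.43, as did 1 on chromosome 7, and that on chromosome 18, with no KRAB member, −0.29. The medians were above 0 in the cluster on chromosome 6 (0.05) and in 2 on chromosome 7 (0.28 and 0.05), which held 3 KRAB members among 13. Genes of a cluster share sequence, so they are not independent of each other.

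**Figure D4:**
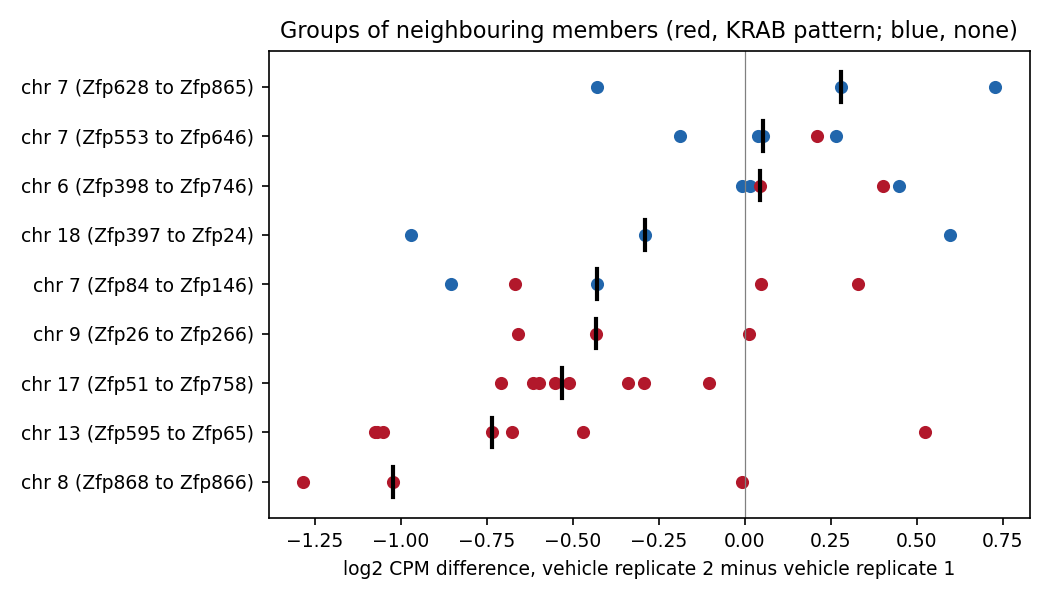
Log2 CPM difference of vehicle 2 from vehicle 1 (horizontal axis) for the 42 members in 9 clusters, with 1 row per cluster named by its chromosome and its first and last member. Red points are KRAB members, blue points are others and black bars are cluster medians, which run from −1.02 for the cluster on chromosome 8 to 0.28 for 1 of those on chromosome 7, below 0 in 6 clusters and above 0 in 3.

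Leaving out vehicle 1, the library closest to ruxolitinib 1, leaves vehicle 2 as the only control, whose spread edgeR then takes from the ruxolitinib libraries. In that fit 26 members were called, 19 higher and 7 lower with ruxolitinib, or 19.0% of the members where 13.7% of all tested genes were called. Higher calls made up 13.9% of the members and 7.13% of all tested genes, and lower calls 5.11% and 6.62%. The calls were 12 higher and 1 lower among KRAB members and 7 higher and 6 lower among the others. They included Zfp263, Zfp932, Zfp719, Zfp869 and Zfp326 as higher and Zfp296, Zfp710, Zfp831 and Zfp638 as lower. Without vehicle 2, ruxolitinib 1 or ruxolitinib 2 in turn, 0 members were called, where 0.0169%, 0.0833% and 0.0499% of all tested genes were. Every fit that kept vehicle 1 thus called 0 members.

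Promoters are shown for 2 members that were low and 2 that were high in vehicle 2, as examples of each direction. They are 300-base RefSeq windows of GRCm38.p6, all on the plus strand, from 250 bases before to 50 bases after the start of the gene, with matches on either strand to the GC box (GGGCGG) or the NF-Y box (CCAAT) in capitals. The capital runs do not overlap each other in these windows. Zfp932 (chr5:109996260-109996559) and Zfp263 (chr16:3743849-3744148) were low in vehicle 2, and Zfp296 (chr7:19577037-19577336) and Zfp710 (chr7:80024564-80024863) were high.
Zfp932: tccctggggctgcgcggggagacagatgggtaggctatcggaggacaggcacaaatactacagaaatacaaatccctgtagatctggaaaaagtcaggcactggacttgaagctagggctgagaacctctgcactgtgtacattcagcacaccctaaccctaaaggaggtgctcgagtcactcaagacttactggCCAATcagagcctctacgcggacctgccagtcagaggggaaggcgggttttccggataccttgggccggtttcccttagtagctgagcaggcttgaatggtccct
Zfp263: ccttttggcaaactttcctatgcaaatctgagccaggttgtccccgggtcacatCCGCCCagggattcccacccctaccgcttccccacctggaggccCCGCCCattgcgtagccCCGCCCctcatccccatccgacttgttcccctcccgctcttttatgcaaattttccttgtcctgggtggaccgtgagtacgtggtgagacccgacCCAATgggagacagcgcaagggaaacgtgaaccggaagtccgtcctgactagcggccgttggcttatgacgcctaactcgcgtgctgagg
Zfp296: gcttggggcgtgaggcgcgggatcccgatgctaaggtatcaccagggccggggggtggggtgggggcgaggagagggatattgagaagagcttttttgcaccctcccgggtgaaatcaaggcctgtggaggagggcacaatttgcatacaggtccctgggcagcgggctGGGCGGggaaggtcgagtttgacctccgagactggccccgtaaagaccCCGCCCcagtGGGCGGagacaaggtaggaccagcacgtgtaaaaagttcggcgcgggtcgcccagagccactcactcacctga
Zfp710: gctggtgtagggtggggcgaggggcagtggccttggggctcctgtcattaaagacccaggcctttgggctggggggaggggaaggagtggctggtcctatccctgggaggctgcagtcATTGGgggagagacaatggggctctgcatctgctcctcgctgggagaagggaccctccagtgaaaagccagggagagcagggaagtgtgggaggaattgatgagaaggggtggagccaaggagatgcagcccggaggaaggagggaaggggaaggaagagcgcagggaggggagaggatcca

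The windows of Zfp263 and Zfp296 each hold 3 GC boxes and those of Zfp932 and Zfp710 none, so neither the low nor the high pair shared this motif. CCAAT was in both windows of the low pair and, of the high pair, in that of Zfp710 and not in that of Zfp296. A promoter was matched for 111 members and for 13035 genes of the files. A GC box was present in 48% of the windows of KRAB members and 62.3% of the others, beside 57.3% of all windows, and CCAAT in 58%, 41% and 38.6%. The ETS core CGGAAG was in 36% of the windows of all members and 27% of all windows, and the TATA box TATAAA in 5.41% and 8.78%. The CRE TGACGTCA was in 5.41% and 2.88%, and the AP-1 site TGACTCA in 2.7% and 4.05%. The 4 windows shown hold none of the last 3. The median number of CpG pairs was 11 in KRAB members, 19 in the others and 18 in all. A match to a motif is a description of the letters and not a binding site.

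The partners of KRAB proteins were examined as a list of corepressor genes, of which 28 were tested. None passed the adjusted threshold in edgeR's test, 0 had an unadjusted p below 0.05, and the median log2 fold change was 0.0003, with 14 of 28 above 0. The groups did not overlap in CPM for 13 of the 28 (46.43%), 7 higher and 6 lower with ruxolitinib, beside 27.27% of all tested genes. That share is a description and was not tested. Trim28, the corepressor that binds the KRAB box, was at 82.1 and 77.4 CPM in vehicle and 84.7 and 98.0 CPM in ruxolitinib. Both ruxolitinib libraries were above both vehicle libraries, at a log2 fold change of 0.20 ± 0.27. Setdb1, the H3K9 methyltransferase, was at 21.9 and 35.2 CPM in vehicle and 18.1 and 17.1 CPM in ruxolitinib. Its vehicle libraries were both higher, vehicle 2 most of all, at a log2 fold change of −0.70 ± 0.32.

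Cbx5, a heterochromatin protein, was at 34.4 and 26.2 CPM in vehicle and 32.4 and 20.3 CPM in ruxolitinib, with overlapping groups. Dnmt1, the maintenance DNA methyltransferase, was at 70.8 and 87.3 CPM and 70.6 and 48.1 CPM, and Morc2a, a partner of the HUSH complex, at 58.9 and 25.2 CPM and 63.8 and 53.8 CPM. Dnmt1 was lowest in ruxolitinib 2, with vehicle 1 just above ruxolitinib 1, and Morc2a in vehicle 2. Between vehicle 2 and vehicle 1 the median log2 difference of the corepressor genes was −0.05, with 13 of 28 higher in vehicle 2.

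Genes with Zbtb, Zkscan and Zscan symbols, which also encode C2H2 fingers but mostly carry BTB or SCAN domains, served as a further comparison. They were not searched for the KRAB pattern. Zkscan symbols stand for KRAB and SCAN domains, so this set is not a comparison without KRAB boxes. Of the 56 tested, none passed the adjusted threshold in edgeR's test and 1 had an unadjusted p below 0.05, with a median log2 fold change of 0.12. That median was −0.0044 without vehicle 2 and 0.28 without vehicle 1. In vehicle 2 their median was −0.14 against vehicle 1, between that of the KRAB members and that of the other members. Vehicle 2 lay below each other library by more than 1.5-fold in 13 of these 56 genes (23.2%), beside 32.1% of the KRAB members. It lay above each by more than 1.5-fold in 5 (8.93%). Over all tested genes these shares were 11.3% and 10.1%. The summed CPM of this set was 1623 in vehicle 1, 1509 in vehicle 2, 1662 in ruxolitinib 1 and 1663 in ruxolitinib 2. Zbtb16, the transcription factor PLZF, was at 4.57 and 14.8 CPM in vehicle and 5.18 and 3.38 CPM in ruxolitinib, with vehicle 2 high. Zbtb26 was at 15.8 and 2.67 CPM and 17.9 and 19.3 CPM, with vehicle 2 low. These 2 genes were chosen after their values were seen.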

How the data were processed

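RNA of 4 libraries was measured. The deposited files list an estimated count, a TPM value and an FPKM value per gene. The submitters' processing notes name Bowtie2, RSEM, DESeq2 and GRCm38.p6 without versions. The annotation and any use of strand in counting are not given in the sources used here. Groups came from the treatment label. TPM gave levels between genes, and the ratio of TPM to FPKM was used only to compare libraries.

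Estimated counts were rounded to whole numbers. The tools were edgeR 4.0.16, DESeq2 1.42.0 and limma 3.58.1 under R 4.3.3. filterByExpr (minimum count 10, minimum total 15) left 11611 genes, library sizes were TMM-scaled, CPM used those sizes, and the edgeR quasi-likelihood model held treatment alone, with p-values adjusted by Benjamini-Hochberg over all genes tested. An exact permutation test (two-sided) of 4 libraries has 0.333 as its smallest p and was left out. Procedures were tested on simulated data. There edgeR called 83.16% of planted 4-fold changes but only 11.82% of planted 2-fold changes, with a mean of 8 false calls per simulated table. The planted genes were drawn from all tested genes, and over that set changes near 2-fold would mostly be missed. The rate at the members' own counts was not computed.

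Members and lists were chosen with earlier results of these data known. Genes named are the 10 with the highest mean TPM, the 6 smallest p in each direction, the 6 with the widest range of log2 CPM, the 4 on each side of the count minimum, a list of 22 members with described roles, and 3 corepressors plus the 3 smallest p among them. Genes of the clusters are named as examples, chosen after their values were seen. Finger and KRAB patterns were to be read from RefSeq proteins, which were not used here. Finger counts came from the longest complete GENCODE M21 coding sequence of a gene and the KRAB pattern from any of its coding transcripts. All 137 members matched the RefSeq gene table. Where a gene had several promoter windows, the first listed was used. The alternatives tried were RLE scaling, DESeq2, limma-voom, other filters, a replicate block, offsets for gene length and GC content, TPM scales, other member rules and leaving out each library.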

Additional observations from a re-analysis of the deposited data

How the results depend on the processing

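Under RLE scaling, DESeq2, limma-voom, both other filters, the length and GC offsets (GC and the KRAB settings were chosen after seeing the data) and both other member rules, the count of members called was 0 and the members' median log2 fold change stayed above 0. On log2(TPM + 1) and log2(TPM + 0.1) that median was −0.1085 and −0.1154, beside −0.128 and −0.1538 for all tested genes. With all 277 tested Zfp genes as members, 81 (29.2%) had groups that did not overlap, against 41 of 137 (29.9%) and 27.3% of all tested genes, so the share was alike. Leaving out each library in turn, members called ran from 0 to 26, their median from −0.0056 to 0.162, the KRAB median from 0.0055 to 0.394 and the corepressor median from −0.0116 to 0.0438, with the highest of the first 3 without vehicle 1. Across genes, the correlation of same-numbered deviations from the group means was 0.0417. It came from only 2 pairs, with vehicle 2 apart from the other libraries, so it cannot decide whether the replicate numbers pair the libraries. With the replicate block in edgeR 0 members were called, while 9 of all 11611 tested genes were called higher and 7 lower. In that fit 10 members had an unadjusted p below 0.05, as did 515 of all tested genes. The median was 0.0419 over the members and 0.2012 over the KRAB members. The cause of these differences was not tested.

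Some named members changed sign. With the length offset, and with the replicate block and length offset together, Zfp516 was at 0.0342 and 0.0367, Zfp809 at −0.0134 and −0.05 and Zfp830 at 0.0082 and 0.0039. With a filter of 50 counts Zfp746 was at −0.0036. When each library was left out, the log2 fold change ran for Zfp296 from −1.9587 to 0.0421, for Zfp710 from −1.5462 to 0.0017, for Zfp831 from −1.4599 to 0.0866, for Zfp148 from −0.9495 to 0.0911, for Zfp292 from −0.7725 to 0.2028, for Zfp318 from −0.7183 to 0.253, for Zfp488 from −0.4507 to 0.066, for Zfp809 from −0.4541 to 0.426, for Zfp516 from −0.326 to 0.2055, for Zfp282 from −0.2748 to 0.159, for Zfp335 from −0.2136 to 0.0267, for Zfp617 from −0.1701 to 1.4164, for Zfp143 from −0.1629 to 0.2611, for Zfp622 from −0.1109 to 0.4183, for Zfp830 from −0.1026 to 0.0695, for Zfp281 from −0.0945 to 0.2314, for Zfp746 from −0.0713 to 0.0856, for Zfp106 from −0.0614 to 0.2219, for Zfp932 from −0.049 to 1.7453, for Zfp687 from −0.0413 to 0.2158, for Zfp800 from −0.0369 to 0.1244 and for Zfp719 from −0.0165 to 1.6565.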
